A study of Mus musculus with 4 samples.

Results

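The claudins examined here are the 10 genes that mark tight junctions along the nephron, the tubule unit of the kidney, namely Cldn1, Cldn2, Cldn3, Cldn4, Cldn7, Cldn8, Cldn10, Cldn12, Cldn16 and Cldn19. They were taken by symbol, and all 10 were found among the 18383 genes of the deposited count table and passed the filter on low counts. RNA of 4 libraries came from cortical tubule cells, prepared as primary epithelial cells from C57BL/6 mice aged 8 weeks. KMS cells (2 libraries) carried the genotype SETD2fl/fl MYCfl/fl KspCre/+, and KM cells (2 libraries) MYCfl/fl KspCre/+. The MYC allele and the Cre transgene were therefore shared, and the comparison asks what differs when SETD2, the enzyme that trimethylates histone H3 at lysine 36, is floxed as well. Cre is driven here by the promoter of kidney-specific cadherin, so the alleles recombine in the epithelium where that promoter is active and not in every cell of the cortex. The series title describes the genotypes as MYC+; SETD2-/- and MYC+.

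Claudins are membrane proteins whose extracellular loops join those of the neighbouring cell and set which ions and how much water pass between epithelial cells. Some form pores and others form barriers, and each nephron segment carries its own set. Claudin-2 is the cation and water pore of the proximal tubule, claudin-16 and claudin-19 serve calcium and magnesium reabsorption in the thick ascending limb, and claudins 3, 4, 7 and 8 line the distal nephron and collecting duct.

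Total counts were 9780050 and 8886496 in the KMS libraries and 18639040 and 14955148 in the KM libraries, and levels are given as CPM, the count per 1e+06 reads counted, after scaling with TMM factors. Setd2 had 58.3 and 49.2 CPM in KMS, against 54.3 and 58.1 CPM in KM (edgeR adjusted p = 0.843). The floxed exons are not named in the labels, so a count over the whole gene does not check the genotype. Xist, the RNA of the silenced female X chromosome, was high in both replicate 1 libraries (4363 counts in KMS and 12967 in KM). Y-linked genes were high in both replicate 2 libraries (1471 counts in KMS and 3410 in KM). Values are therefore also given within each sex, as the log2 ratio of KMS to KM after adding 0.5 CPM.

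Cldn3, Cldn4 and Cldn7 were lower in both KMS libraries than in either KM library, by 4.27 to 8.74 times in the fitted fold change. Cldn2, Cldn10, Cldn12 and Cldn8 were higher in both KMS libraries than in either KM library, by 1.44 to 2.20 times. Cldn1, Cldn16 and Cldn19 overlapped between the genotypes. None of the 10 passed an adjusted p of 0.05 (edgeR quasi-likelihood test, Benjamini-Hochberg over 15002 genes), a threshold that 0.0333% of tested genes passed. Each genotype had 1 Xist-rich and 1 Y-gene-rich library, and with a term for sex in the edgeR model Cldn3 and Cldn4 passed (adjusted p = 0.0247 and 0.0274), where 3.50% of tested genes fell and 1.93% rose. With genotype and sex both fitted, the libraries left 1 degree of freedom for the spread. These calls therefore lean on spread shared across genes. At an unadjusted edgeR p under 0.05 there were 3 members higher and 3 lower, where 12.2% and 14.1% of all tested genes stood higher and lower at that level. Groups did not overlap for 4 members on the higher side and 3 on the lower side, against 29.0% and 31.3% of tested genes, so the share of members without overlap was near that of all genes on the lower side. The median log2 fold change of the 10 was 0.30, and that of all tested genes was -0.01.

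**Figure D1:**
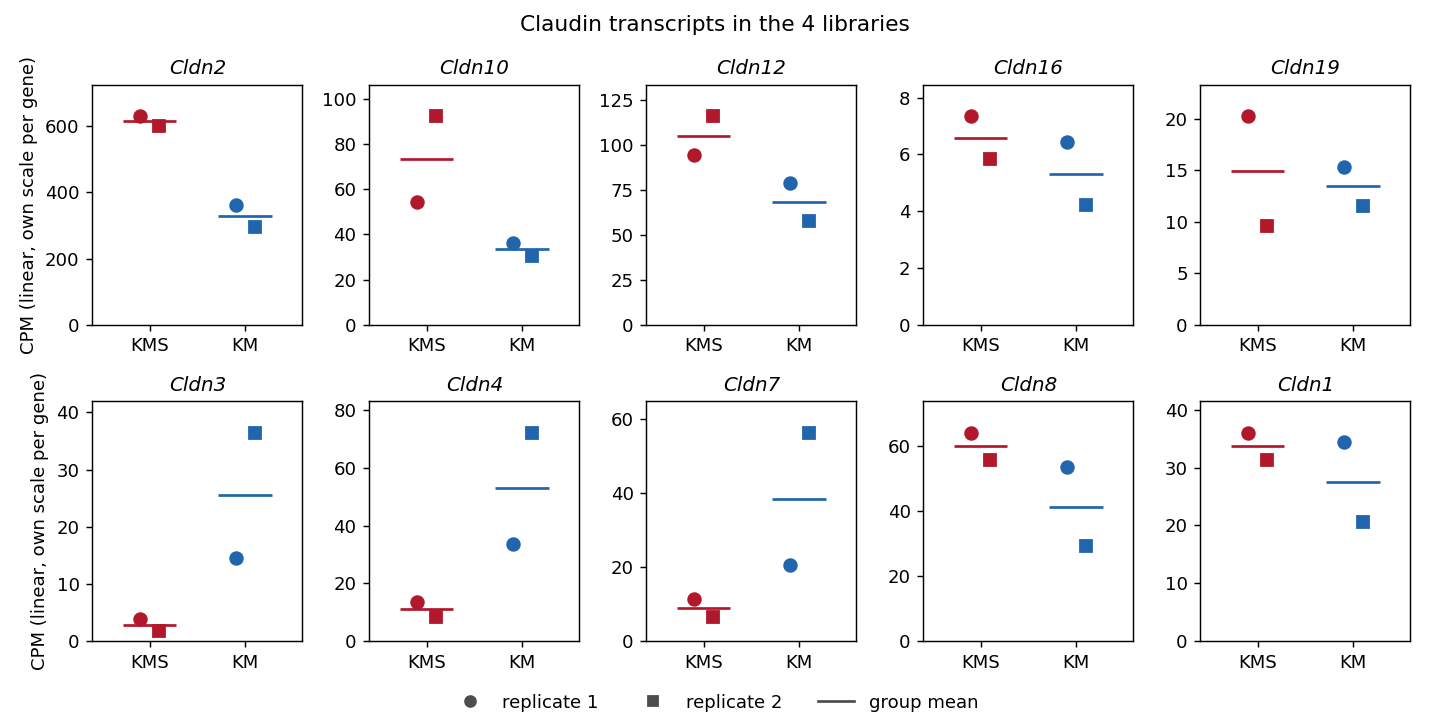
CPM of each of the 10 claudin genes in the KMS (red) and KM (blue) libraries, on a linear axis from 0 with its own scale for each gene; circles are replicate 1, squares replicate 2 and lines the group means. Cldn3, Cldn4 and Cldn7 lie lower in both KMS libraries, and the KM replicate 2 library holds the highest value of each of these genes.

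Among the claudins of the distal nephron and collecting duct, Cldn3 had the largest difference of the 10. This barrier-forming claudin had 38 and 15 counts in KMS against 270 and 595 counts in KM, which is 3.93 and 1.82 CPM in KMS and 14.6 and 36.4 CPM in KM. The KMS values are low enough for counting error to matter, with 95% exact Poisson intervals of 2.78 to 5.40 and 1.02 to 3.01 CPM, and both lie below the KM values. Its log2 fold change was -3.13 ± 0.57 (SE, n = 2 each; edgeR adjusted p = 0.080). Within sex the log2 ratio was -1.77 in the Xist-rich libraries and -3.99 in the Y-rich libraries.

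Cldn4, which forms a barrier to cations and a path for chloride in collecting duct cells, had 13.7 and 8.38 CPM in KMS and 33.6 and 72.2 CPM in KM. The 2 KM libraries differed from each other by more than the KMS libraries did, with replicate 2 the higher. The log2 fold change was -2.26 ± 0.43 (SE, n = 2 each; edgeR adjusted p = 0.082), with log2 ratios of -1.27 in the Xist-rich and -3.03 in the Y-rich libraries. Cldn7, a claudin of distal and collecting duct epithelium that also lies along the lateral cell membrane, had 11.5 and 6.44 CPM in KMS and 20.6 and 56.3 CPM in KM. Here too KM replicate 2 was the highest library and KMS replicate 2 the lowest. Its log2 fold change was -2.09 ± 0.53 (SE, n = 2 each; edgeR adjusted p = 0.099), with log2 ratios of -0.81 and -3.03 in the Xist-rich and Y-rich libraries.

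Cldn3 and Cldn4 are neighbours on mouse chromosome 5 (GRCm38.p6), at 134986214 to 134987476 on the plus strand and 134945123 to 134946934 on the minus strand, with 39.3 kb between them. Cldn7 lies on chromosome 11 at 69964779 to 69967886, plus strand. In mouse epithelial cells the repressor Snail is known to bind E-boxes, short motifs with the letters CAGGTG, in the promoters of these 3 claudins, so their promoter windows are shown with that motif in capitals. Each window runs from 250 bases before to 50 bases after the annotated start, 5′ to 3′ on the strand of the gene (RefSeq, GRCm38.p6). The windows are chr5:134985964-134986263 for Cldn3, chr5:134946885-134947184 for Cldn4, chr11:69965171-69965470 for the downstream of the 2 starts of Cldn7 and chrX:139800558-139800857 for Cldn2. Cldn2, which was higher in KMS, is set beside them, and its capitals mark a TATA box (TATAAA).
Cldn3: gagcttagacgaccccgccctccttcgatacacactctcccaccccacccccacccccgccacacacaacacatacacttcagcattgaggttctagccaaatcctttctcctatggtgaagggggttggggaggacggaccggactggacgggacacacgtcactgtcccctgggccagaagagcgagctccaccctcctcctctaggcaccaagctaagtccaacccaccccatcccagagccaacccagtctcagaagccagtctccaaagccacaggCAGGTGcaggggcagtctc
Cldn4: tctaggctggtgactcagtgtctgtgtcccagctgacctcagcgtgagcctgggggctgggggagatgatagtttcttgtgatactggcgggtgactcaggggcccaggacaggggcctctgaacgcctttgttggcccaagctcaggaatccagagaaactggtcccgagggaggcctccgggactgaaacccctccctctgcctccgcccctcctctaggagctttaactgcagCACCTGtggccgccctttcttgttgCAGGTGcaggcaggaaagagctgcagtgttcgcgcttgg
Cldn7: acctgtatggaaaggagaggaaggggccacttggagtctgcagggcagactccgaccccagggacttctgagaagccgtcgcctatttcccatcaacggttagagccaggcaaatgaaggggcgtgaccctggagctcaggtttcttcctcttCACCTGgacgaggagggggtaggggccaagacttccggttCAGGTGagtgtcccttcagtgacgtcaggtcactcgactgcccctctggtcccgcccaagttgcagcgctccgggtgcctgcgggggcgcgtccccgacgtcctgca
Cldn2: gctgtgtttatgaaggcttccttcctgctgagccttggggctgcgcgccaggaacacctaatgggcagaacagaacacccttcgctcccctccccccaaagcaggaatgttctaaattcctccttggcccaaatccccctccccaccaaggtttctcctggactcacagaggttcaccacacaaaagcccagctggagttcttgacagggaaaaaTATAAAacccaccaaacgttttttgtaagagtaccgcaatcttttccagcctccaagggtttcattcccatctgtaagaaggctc

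On either strand CAGGTG was found once in the Cldn3 window, 31 bases after the start base. The Cldn4 window held it at -14 and 11, and the downstream Cldn7 window at -97 and -57, counted to the first base of the match from the start base as 0. The upstream Cldn7 window held no match, nor did the 10 windows of the 6 other members with a promoter entry (Cldn1, Cldn2, Cldn10, Cldn12, Cldn16 and Cldn19). Of the 14 windows of the members 3 held the motif, a share near the 20.2% found over all 32851 windows of 300 bases. A match only describes these letters and does not show binding. The motifs searched (both strands) were chosen with the values of the genes known. The others were the Myc-type E-box CACGTG, found in 7.15% of windows, the grainyhead motif AACNGGTT, found in 2.09%, and the TATA box, found in 13.6%. In the windows of the members the TATA box was found for Cldn2 and the other 2 motifs nowhere. No matches overlapped each other. Snai1, the gene of Snail, had 0.414 and 0.364 CPM in KMS and 1.35 and 1.10 CPM in KM, and its relative Snai2 had 2.38 and 1.70 CPM in KMS and 6.26 and 4.65 CPM in KM. Both were therefore lower by value in KMS without passing the test (edgeR adjusted p = 0.141 and 0.106). Snai1 had only 4 and 3 counts in KMS, against 25 and 18 in KM. It passed the filter on low counts through KM, so its direction rests on few counts. Snai1 and Snai2 are named here because of the motif, outside the rule for named genes.

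Cldn8, the partner through which claudin-4 is placed in the tight junction of collecting duct cells, did not go with the others of its segment. It had 64.2 and 55.8 CPM in KMS and 53.6 and 29.4 CPM in KM, and the KM replicate 1 library came close to the KMS libraries. The log2 fold change was 0.53 ± 0.30 (SE, n = 2 each; edgeR adjusted p = 0.306), with log2 ratios of 0.26 and 0.91 in the Xist-rich and Y-rich libraries. Ratios of counts within a library need no scaling between libraries. The count ratio of Cldn4 to Cldn8 was 0.213 and 0.150 in KMS, against 0.627 and 2.46 in KM. Cldn7 to Cldn8 gave 0.179 and 0.116 in KMS, against 0.384 and 1.92 in KM, and Cldn3 to Cldn8 gave 0.0612 and 0.0327 in KMS, against 0.272 and 1.24 in KM. In none of these ratios to Cldn8 did the genotypes overlap. That follows from the CPM values above, where Cldn8 was higher and the other genes lower in both KMS libraries, and adds no separate support. Cldn7 kept a similar ratio to Cldn4 in all 4 libraries, 0.841 and 0.768 in KMS and 0.612 and 0.780 in KM, with overlap. Cldn3 to Cldn4 gave count ratios of 0.288 and 0.217 in KMS, against 0.433 and 0.505 in KM, without overlap. The exact two-sided permutation test gave p = 0.333 for each ratio without overlap, the smallest p that 2 against 2 libraries allow.

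**Figure D2:**
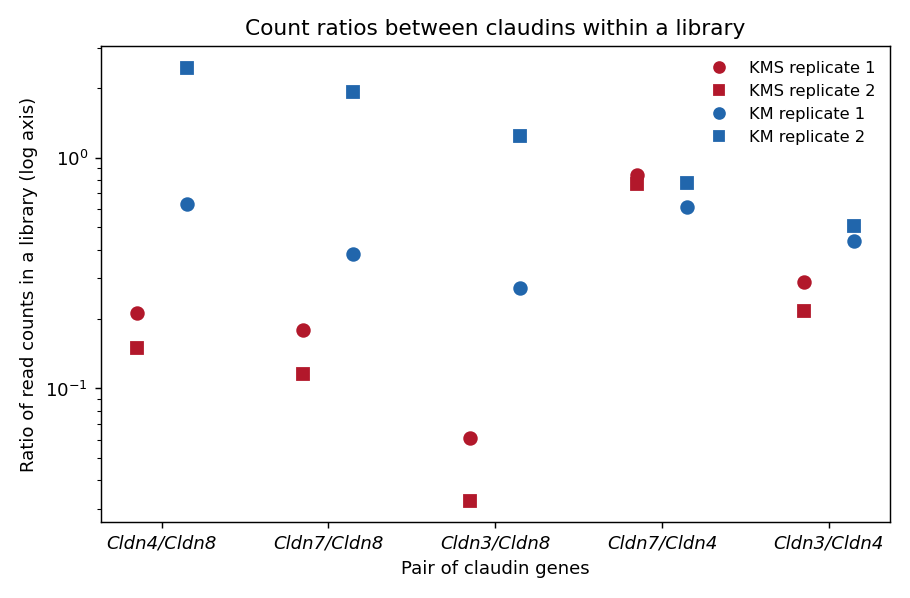
Ratios of read counts between claudin genes within each library, on a log axis; red is KMS, blue is KM, circles are replicate 1 and squares replicate 2. The ratios of Cldn4, Cldn7 and Cldn3 to Cldn8 are lower in both KMS libraries, while Cldn7/Cldn4 lies between 0.612 and 0.841 in the 4 libraries.

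Of the claudins of the proximal tubule, Cldn2 had the highest CPM per kb of exon of the 10 in every library. The cation and water pore gene had 630.2 and 601.2 CPM in KMS and 362.6 and 296.6 CPM in KM, which is 616 ± 20.6 and 330 ± 46.6 CPM (SD, n = 2 each). Both KMS libraries lay above both KM libraries, and the fitted log2 difference was 0.90 ± 0.24 (SE; adjusted p = 0.102 by edgeR), with log2 ratios of 0.80 and 1.02 within sex. In the authors' deposited table, Cldn2 was the member with an adjusted p under 0.05 (fold 1.91, adjusted p = 0.0319), where 1.34% of the genes in that table passed on the higher side. Cldn2 lies on the X chromosome (139800808 to 139811386, GRCm38.p6).

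Cldn10 yields an anion-selective form in the proximal tubule and a cation-selective form in the thick ascending limb, which start at different first exons and are summed in a count per gene. It had 54.2 and 92.3 CPM in KMS and 36.2 and 30.4 CPM in KM, a log2 fold change of 1.13 ± 0.28 (SE, n = 2 each; edgeR adjusted p = 0.097). KMS replicate 2 was the highest library, and the log2 ratio was 0.57 in the Xist-rich and 1.58 in the Y-rich libraries. Cldn12, which contributes to calcium permeability of the proximal tubule in mice and is found in many segments, had 94.2 and 116 CPM in KMS and 78.6 and 57.7 CPM in KM. The groups did not overlap, and the log2 fold change was 0.62 ± 0.23 (SE, n = 2 each; edgeR adjusted p = 0.153), with log2 ratios of 0.26 and 1.0 within sex.

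The divalent cation claudins of the thick ascending limb did not separate by genotype. Cldn16, whose human gene is mutated in familial hypomagnesaemia with hypercalciuria, had 7.34 and 5.83 CPM in KMS and 6.42 and 4.22 CPM in KM. Its log2 fold change was 0.31 ± 0.35 (SE, n = 2 each; edgeR adjusted p = 0.611), and its 48 to 119 counts per library limit the precision. Cldn19, the partner of claudin-16 and a second gene of that disease, had 20.3 and 9.60 CPM in KMS and 15.3 and 11.6 CPM in KM. Here the KMS libraries enclosed the KM libraries, and the log2 fold change was 0.15 ± 0.39 (SE, n = 2 each; edgeR adjusted p = 0.830). The count ratio of Cldn19 to Cldn16 was 2.76 and 1.65 in KMS and 2.39 and 2.74 in KM, with overlap. Cldn14, which blocks these claudins when the calcium-sensing receptor is active, had 2 and 0 counts in KMS and 7 and 16 counts in KM and did not pass the filter on low counts. Cldn1, known in kidney for the parietal cells of Bowman's capsule, had 36.0 and 31.3 CPM in KMS and 34.3 and 20.5 CPM in KM, again with overlap (log2 fold change 0.30 ± 0.28 SE, n = 2 each; edgeR adjusted p = 0.534).

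**Figure D3:**
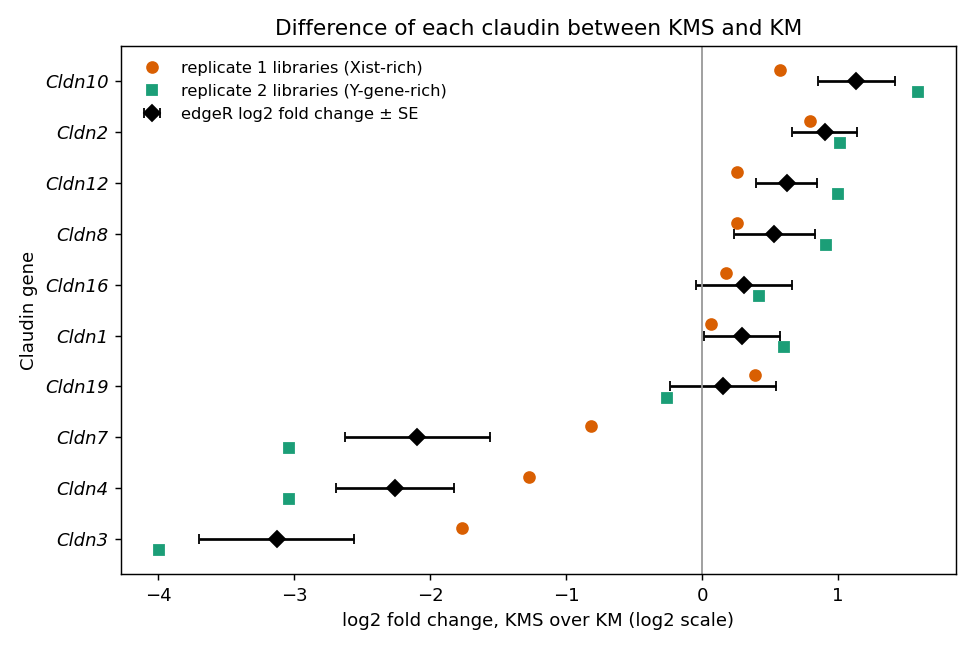
Log2 fold change of each claudin, KMS over KM, from edgeR with genotype alone (diamonds, bars are ± SE), with the log2 ratios within the Xist-rich replicate 1 libraries (circles) and the Y-gene-rich replicate 2 libraries (squares). Cldn3, Cldn4 and Cldn7 are negative in both sexes and further from 0 in the replicate 2 libraries, and Cldn19 is 0.39 and -0.26 in the replicate 1 and replicate 2 libraries.

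In the edgeR fit with a term for sex, Cldn3 fell by 2.998 ± 0.54 and Cldn4 by 2.18 ± 0.40 on the log2 scale (SE). Cldn7 and Cldn10 stood at adjusted p = 0.058 and 0.057 in that edgeR fit, and Cldn2 at 0.097. With a KM library left out, the spread comes from the 2 KMS libraries alone, and the KM library that remains is assumed to vary like them. Without KM replicate 2, the library with the most Cldn3, Cldn4 and Cldn7, the log2 fold changes of these genes were -2.32, -1.60 and -1.19, and Cldn3 passed (edgeR adjusted p = 0.0483), where 0.168% of tested genes were called higher and 0.968% lower. Without KM replicate 1 they were -3.63, -2.69 and -2.63, and all of these genes passed (highest edgeR adjusted p = 0.00235), as did Cldn8 on the higher side (log2 fold change 1.04, edgeR adjusted p = 0.0419). In that fit 3.67% of tested genes were called higher and 7.83% lower.

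Levels of different claudins were compared as CPM per kb of exon, with exon lengths from GENCODE M21. Cldn2 stood first with 202 ± 6.74 CPM per kb in KMS and 108 ± 15.3 in KM (SD, n = 2 each). It made up 64.8% and 63.0% of the summed CPM per kb of the 10 claudins in the KMS libraries and 49.7% and 38.1% in the KM libraries. In KMS it was followed by Cldn10 (28.3 ± 10.4 CPM per kb), Cldn12 (26.7 ± 3.91) and Cldn8 (25.5 ± 2.54), which differed from each other by less than their spread. Cldn1 came next at 10.4 ± 1.02, and then Cldn4, Cldn7, Cldn16, Cldn19 and Cldn3 between 6.07 and 2.29 CPM per kb, where neighbours overlapped except Cldn16 and Cldn19. In KM the places after Cldn2 were taken by Cldn4 (29.1 ± 15.01 CPM per kb), Cldn7 (26.0 ± 17.1) and Cldn3 (20.3 ± 12.3), whose order does not exceed their spread. Cldn8, Cldn12, Cldn10 and Cldn1 followed at 17.6, 17.3, 12.9 and 8.45, and Cldn16 and Cldn19 came last at 4.54 and 3.15 CPM per kb. Of these, Cldn8 overlapped with Cldn3 before it and Cldn12 after it, and the later neighbours did not overlap. Together Cldn3, Cldn4 and Cldn7 made up 5.76% and 3.32% of the sum in KMS and 18.4% and 41.8% in KM (exact two-sided permutation p = 0.333, the smallest possible). These genes were grouped with their lower values in KMS known, so the separation of this share adds no support of its own.

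**Figure D4:**
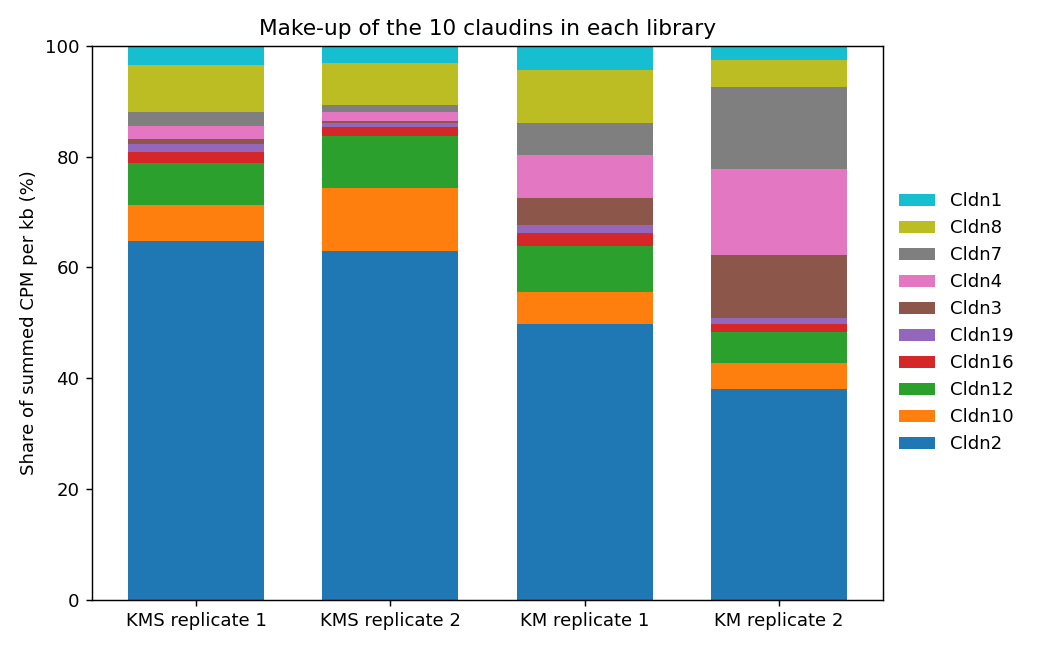
Share of each claudin in the summed CPM per kb of the 10 genes, as stacked bars that add to 100% in each library. Cldn2 (bottom) holds over 60% in both KMS libraries, and Cldn3, Cldn4 and Cldn7 together reach 41.8% in KM replicate 2.

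Other components of the tight junction showed smaller differences than Cldn3, Cldn4 and Cldn7. Of 30 partner genes, which encode other junction membrane proteins, scaffolds and polarity proteins, 3 were higher and 5 lower at an unadjusted edgeR p under 0.05. Over all tested genes 12.2% stood higher and 14.1% lower at that level. None of the partner genes passed the adjusted threshold with genotype alone, and their median log2 fold change was -0.02. With the term for sex, 0 were higher and 2 lower past that threshold in edgeR, against 1.93% and 3.50% of tested genes. Ybx3, which encodes the scaffold-bound transcription factor ZONAB, had 38.3 and 35.1 CPM in KMS and 91.5 and 137 CPM in KM (log2 fold change -1.64 ± 0.24 SE, n = 2 each; edgeR adjusted p = 0.066). Cgn, the gene of the junction adaptor cingulin, had 15 and 12.8 CPM in KMS and 23.7 and 33.9 CPM in KM (edgeR adjusted p = 0.094). Both were lower in each KMS library than in either KM library. Ocln, the gene of occludin, had 25.6 and 28.8 CPM in KMS and 27.8 and 28.2 CPM in KM, and is given outside the rule for named genes as the best known partner. Of the claudins outside the 10, 4 passed the filter and none was called. Among them Cldn5, the claudin of endothelium and podocytes, had 27.8 and 30.4 CPM in KMS and 22.2 and 12.2 CPM in KM (edgeR adjusted p = 0.190). Cldn6, a claudin of embryonic epithelia, had 0.621 and 2.43 CPM in KMS and 0.702 and 0.980 CPM in KM.

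In the list of claudin regulators (kinases, proteases and transcription factors), 28 of 30 genes were tested. None was called with genotype alone, and the median log2 fold change was 0.07. At an unadjusted edgeR p under 0.05, 7 were higher and 8 lower, against 12.2% and 14.1% of all tested genes. St14, the gene of the membrane protease matriptase, had 15.6 and 12.3 CPM in KMS and 33.4 and 68.0 CPM in KM (edgeR adjusted p = 0.082). St14 was highest in KM replicate 2, as Cldn4 and Cldn7 were.

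Among the genes of the lists with a mean of at least 1 CPM over the 4 libraries, those most like each claudin were named. The measure was the root mean square difference of centred log2 CPM after adding 0.5 CPM. For Cldn2 the nearest was Prss8, the gene of the membrane protease prostasin, at 0.028. For Cldn4 they were Cldn7 (0.171) and St14 (0.235), and for Cldn7 they were the epithelial transcription factor gene Elf3 (0.163) and Cldn4. Cldn3 lay nearest to Vcam1 and Timp1, markers of injured tubules, at 0.234 and 0.245. Timp1 had 4 and 0 counts in KMS, so its profile there was set largely by the added 0.5 CPM. Cldn10 lay nearest to the proximal genes Ggt1 (0.124) and Slc27a2 (0.125), and Cldn12 to Ildr2 (0.030), the gene of an angulin. Cldn8 lay nearest to the podocyte genes Cdkn1c (0.067) and Podxl (0.068), and Cldn1 and Cldn16 to the kinase gene Wnk4, at 0.059 and 0.060. With only 4 libraries, a small difference shows a like profile and no more.

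Markers of several cell types moved with these groups of claudins. In bulk RNA, fewer cells of a type and less RNA per cell cannot be told apart. All 15 proximal tubule markers had positive log2 fold changes, with a median of 1.01. Of these, 9 were higher at an unadjusted edgeR p under 0.05, against 12.2% of all tested genes. Their summed CPM was 22420 and 36470 in KMS and 13400 and 9755 in KM, higher in both KMS libraries, as were Cldn2, Cldn10 and Cldn12. Much of the sum in KMS replicate 2 was Kap, an androgen-regulated gene named after its values were seen, with 56.7 and 14950 CPM in KMS against 1482 and 829.3 CPM in KM. Without Kap the sums were 22360 and 21530 CPM in KMS and 11920 and 8926 CPM in KM, still without overlap. The part of proximal tubule cells in the difference of these claudins was not tested. In the thick ascending limb list 11 of 13 tested markers were positive, with a median of 0.65. Summed CPM was 5391 and 3039 in KMS and 3372 and 1085 in KM. These sums overlapped between the genotypes, but KMS was the higher within each sex. Cldn16 was too (log2 ratios 0.18 and 0.42), while Cldn19 was not (0.39 and -0.26). With the term for sex, 4 of these markers were higher and 0 lower past the adjusted threshold in edgeR, against 1.93% and 3.50% of tested genes. The collecting duct list had 9 of 17 tested markers positive and a median of 0.02, with summed CPM of 749.7 and 451 in KMS and 858.1 and 580.4 in KM. Its members split both ways, with 3 higher and 5 lower at an unadjusted edgeR p under 0.05, against 12.2% and 14.1% of all tested genes. With the term for sex 2 were higher and 4 lower past the adjusted threshold, against 1.93% and 3.50%. Among those lower were Aqp6, a water channel of intercalated cells, with 16.6 and 15.3 CPM in KMS against 37.4 and 37.6 CPM in KM, and Atp6v1g3, a proton pump subunit, with 41.2 and 30.0 CPM in KMS against 98.5 and 84.1 CPM in KM. Among those higher, and named after its values were seen, was Aqp2, the water channel of principal cells, with 112.2 and 70.9 CPM in KMS against 58.2 and 32.9 CPM in KM. The part of collecting duct cells in the difference of Cldn3, Cldn4 and Cldn7 was not tested.

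Urothelial markers, of the lining of the renal pelvis and ureter, were all 8 of 8 tested negative, and 3 of the 10 with counts (Krt5, Krt14 and Krt15) had none in KMS. Most of those tested had almost no counts in KMS and passed the filter on low counts only through KM. Their negative sign was thus set by the filter. The summed CPM of the urothelial list was 1.76 and 2.67 in KMS and 16.7 and 118 in KM, with the highest value in KM replicate 2, as for Cldn3, Cldn4 and Cldn7. Markers of injured tubules were negative for 10 of 10, with a median log2 fold change of -2.70 and summed CPM of 3252 and 1266 in KMS and 4206 and 9853 in KM. Among them Timp1 (4 and 0 counts in KMS), Havcr1 (0 and 6) and Sox9 (10 and 6) also passed the filter only through KM. The filter thus favoured the negative signs of these genes, and the median includes them. The part of urothelial or injured cells in the difference of these 3 claudins was not tested. In the parietal cell list 5 of 8 markers were negative, with a median of -0.64, while Cldn1 overlapped between the genotypes. Leukocyte and fibroblast markers were negative for 9 of 9 and 6 of 6 tested genes, with medians of -1.32 and -1.03. The medians were -0.23 for endothelial markers, 0.62 for podocyte markers and 1.49 for markers of the distal convoluted and connecting tubule. Summed CPM of the distal convoluted and connecting tubule list was 5809 and 4823 in KMS and 2714 and 1301 in KM. For the podocyte list it was 2783 and 2566 in KMS and 2332 and 1196 in KM. Higher sums in both KMS libraries were thus not particular to proximal tubule markers.

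**Figure D5:**
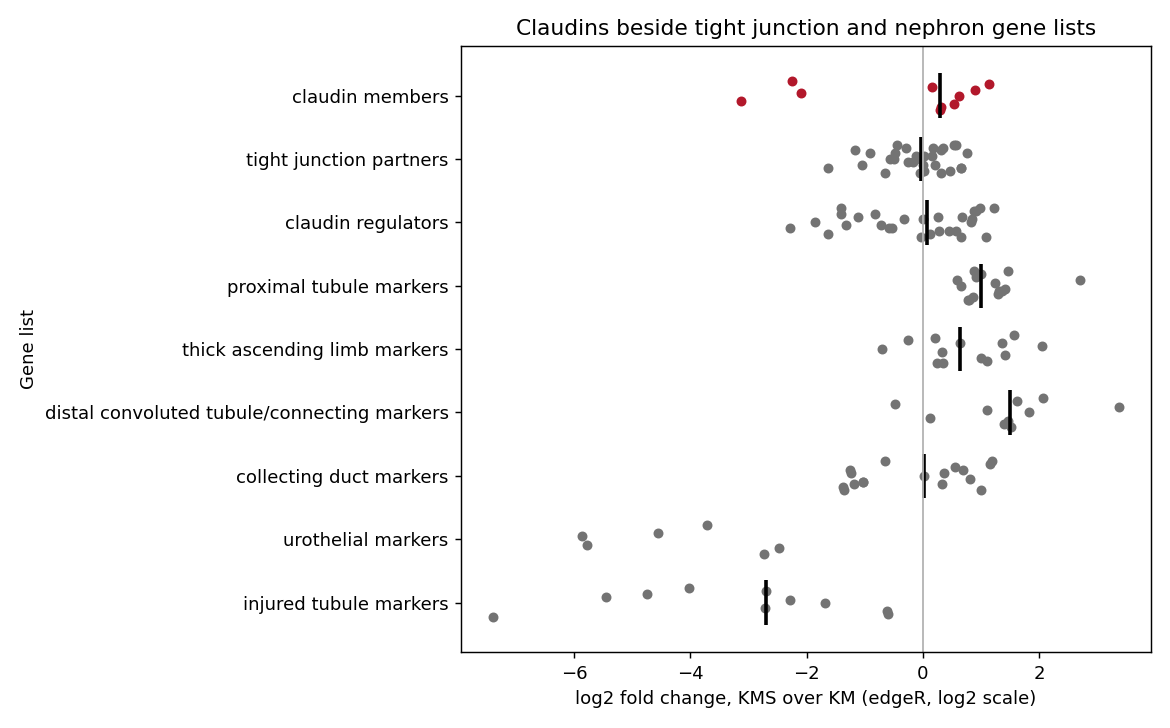
Log2 fold change (KMS over KM, edgeR) of each tested gene in the claudin set (red) and in other lists (grey), with the list median as a vertical line. Urothelial genes without counts in KMS are not drawn and that list has no median line; the claudins split into 3 genes below -2 and 7 genes above 0.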

How the data were processed

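Messenger RNA of 4 libraries was measured, 2 of KMS and 2 of KM cells, grouped by the titles of the samples. Per the labels' protocols, RNA was selected on poly(A) tails and the library kit kept strand. Per the submitters' processing notes, cutadapt 1.9.1, Trimmomatic 0.35, FastQC, HISAT2, StringTie, MACS2 2.1.1 and the build GRCm38 were named, without roles. Neither the counting program nor its use of strand is stated in the labels. For Cldn3 and Cldn19, reads of an overlapping antisense gene can therefore not be told apart. The series' design text gives other genotypes and more replicates than the sample labels, and the sample labels were followed. The labels do not name the animal of each library. In each genotype 1 library was rich in Xist and the other in Y-linked genes, so the 2 libraries of a genotype are not of 1 animal, and the spread behind each p-value holds a difference of sex.

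The authors deposited raw counts per gene for 18383 genes. In the authors' deposited table there are also the mean signal per group, its fold ratio, the log2 of that ratio, and a p-value and adjusted p-value of a test that is not named. There were 0 unmapped value columns.

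The test of counts was that of edgeR 4.0.16 under R 4.3.3 (TMM factors, filterByExpr with a minimum count of 10 and total of 15, quasi-likelihood F test, genotype alone). This left 15002 genes, and SE came from the F statistic. CPM is the count per 1e+06 of the TMM-adjusted total. Alternatives used DESeq2 1.42.0, limma 3.58.1 (voom), other scalings and filters, a replicate block and each library left out. The replicates differed beyond sampling noise (chi-square per degree of freedom 40.1 in KMS and 53.6 in KM). Intervals and floors cover counting error only.

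The members, the gene lists and the motifs were chosen with earlier results of these data known. All members are named, and from each other list up to 4 genes of smallest p where the list had a call, otherwise up to 2. Of the genes so chosen, 1 is not reported here. Of the listed genes, 10 had no row. Positions and promoters come from RefSeq GRCm38.p6, where 9 of 10 members had a promoter entry. The fits were tried on simulated counts with set fold changes and no difference of sex. That trial therefore does not show how they handle the sexes in these libraries.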

Additional observations from a re-analysis of the deposited data

Results flagged for a closer look

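Cldn19, the partner of claudin-16 in the thick ascending limb, had log2 ratios of opposite sign in the sexes. The log2 ratio of KMS to KM was 0.39 in the Xist-rich replicate 1 libraries, at 20.3 CPM in KMS and 15.3 CPM in KM. It was -0.26 in the Y-gene-rich replicate 2 libraries, at 9.60 CPM in KMS and 11.6 CPM in KM. The exact Poisson intervals of the replicate 2 libraries overlapped, at 7.6 to 12 CPM in KMS and 9.98 to 13.3 CPM in KM. Each value rests on 1 library per genotype, and the difference between the sexes was not tested.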

How the results depend on the processing

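Of 110 values (the log2 fold changes of 10 claudins under 11 alternatives), 95 kept their direction and stayed short of the threshold, 12 kept it and passed, and 3 reversed. The reversed values were uncalled genes with a library left out. With a library left out Cldn19 ranged from -0.451 (without KMS replicate 1) to 0.608, with -0.03 without KM replicate 2, and Cldn1 from -0.023 (without KM replicate 2) to 0.727. The number of claudins called was 0 in the reported fit, 5 with the DESeq2 Wald test (Cldn2, Cldn3, Cldn4, Cldn7 and Cldn10) and 2 with the replicate block, and ranged from 0 to 4 with a library left out. Of 15002 genes tested, 5 were called in the reported fit, 1767 with DESeq2, 815 with the replicate block, 3 with library totals and 1 with limma-voom. With a mean of at least 1 CPM the genes called numbered 3 of 14495. They ranged from 0 (without either KMS library) to 1786 (without KM replicate 1), with 169 without KM replicate 2. The median log2 fold change of the claudins, 0.30 as reported, ranged from 0.01 without KM replicate 2 to 0.69 without KM replicate 1. Library totals moved the median of all genes to -0.13 and that of the claudins to 0.20, with no sign turned. With a library left out, 1 group holds 1 library, which is assumed to vary like the other group's 2. The causes of these changes were not tested.

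The replicate block is the same term as sex here. Same-numbered libraries are not stated to be paired, and their deviations correlated at 0.066 over 14997 genes without Xist and Y-linked genes, so the numbers are not taken as pairs. Cldn3 had 15 counts in a KMS library, and claudins with few counts, such as Cldn16, are limited by depth.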
